A study of Arabidopsis thaliana with 12 samples.

Results

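The tau (GSTU) and phi (GSTF) glutathione transferases of Arabidopsis root were followed across 2 genotypes and 2 times of salt. The set held 41 loci chosen by family membership, 28 tau genes (*GSTU1* to *GSTU28*) and 13 phi genes (*GSTF2* to *GSTF14*). The family was chosen with earlier results of these data known. The loci were found among the array probes by AGI locus or by RefSeq transcript. Of these, 40 matched a probe and 38 (26 tau, 12 phi) were among the 25206 genes tested. *GSTU21* (AT1G78360) is named only, *GSTU15* (AT1G59670) was well above background on 0 of the 12 arrays and *GSTF5* (AT1G02940) on 1, and neither was tested. Of the 38 tested, 37 were well above background on all 12 arrays and *GSTU26* on 11, its spot on *agb1* 4 h replicate 2 having been flagged as an outlier and left out.

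Roots of 7-day-old seedlings of wild-type Col-0 (WT) and of the *agb1-3* mutant (*agb1*), mutated in the gene of the heterotrimeric G protein β subunit, were collected after 0 or 4 h in liquid MS medium with 150 mM NaCl. Each of the 4 groups had 3 one-colour Agilent arrays. The mutant is represented by a single T-DNA insertion allele. The labels give the control as 0 h in the salt medium, while the study's methods describe it as kept for 4 h without NaCl. If the labels hold, salt, immersion and the 4 h that passed cannot be told apart. The study calls the replicates independent and biological, but neither it nor the labels say whether they came from separate plates or plants. The p-values therefore measure the spread between these samples, which may be technical.

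Glutathione transferases join the tripeptide glutathione to reactive or foreign molecules, and some also reduce organic hydroperoxides with glutathione. The tau and phi classes are the large plant classes. Their genes often stand in tandem rows, and many are known to be induced by herbicide safeners, oxidants and hormones. The glutathione conjugates are carried into the vacuole by ABCC transporters, and some phi members bind flavonoids or indoles rather than acting on them.

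The arrays lay on 4 slides, and WT 0 h replicate 2 was alone on its slide. The 75th percentile of the intensity ranged from 1772 to 3582 and 74.1 to 76.1% of the spots were well above background. *agb1* 0 h replicates 1 and 2 differed by less than repeated spots of the same probe (67 of 15305 probes differed over 1.5-fold, against 293 to 3747 in the other pairs within groups), and were counted as 1 sample, so that 11 samples entered the model and *agb1* at 0 h had n = 2. *AGB1* (AT4G34460) gave log2 signals of 1.26 to 1.64 in WT and of -0.10 to 0.88 in *agb1*, without overlap. All 11 root markers were well above background on every array. So were all 6 shoot markers (photosynthesis genes). Their signals were summed on the linear scale, each relative to the array's 75th percentile. The sums were 11.7 to 15.3 in WT at 0 h and 7.38 to 21.7 in WT at 4 h. In *agb1* they were 4.87 to 7.65 at 0 h and 10.8 to 16.6 at 4 h. In bulk roots, fewer cells of a type and less RNA per cell cannot be told apart.

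Signals are given as log2 of the processed intensity minus the 75th percentile of the array, so 0 is the level of that percentile, and the signal of one probe is not set against that of another. Of the 41 loci, 23 lie on chromosome 1, and 29 form 9 runs of neighbours with at most 4 other gene models between them. The longest run is on chromosome 2, with *GSTU7* (AT2G29420), *GSTU6* (AT2G29440), *GSTU5* (AT2G29450), *GSTU4* (AT2G29460), *GSTU3* (AT2G29470), *GSTU2* (AT2G29480) and *GSTU1* (AT2G29490). Chromosome 2 also carries the pair *GSTF9* (AT2G30860) and *GSTF10* (AT2G30870). The 7 runs on chromosome 1 are *GSTF7* (AT1G02920), *GSTF6* (AT1G02930), *GSTF5* and *GSTF4* (AT1G02950), then *GSTU18* (AT1G10360) and *GSTU17* (AT1G10370), then *GSTU24* (AT1G17170), *GSTU25* (AT1G17180) and *GSTU26* (AT1G17190), then *GSTU13* (AT1G27130) and *GSTU14* (AT1G27140), then *GSTU15* and *GSTU16* (AT1G59700), then *GSTU12* (AT1G69920) and *GSTU11* (AT1G69930), and *GSTU23* (AT1G78320), *GSTU22* (AT1G78340), *GSTU21*, *GSTU20* (AT1G78370) and *GSTU19* (AT1G78380). The 12 members outside runs are *GSTU8* (AT3G09270), *GSTU9* (AT5G62480), *GSTU10* (AT1G74590), *GSTU27* (AT3G43800), *GSTU28* (AT1G53680), *GSTF2* (AT4G02520), *GSTF3* (AT2G02930), *GSTF8* (AT2G47730), *GSTF11* (AT3G03190), *GSTF12* (AT5G17220), *GSTF13* (AT3G62760) and *GSTF14* (AT1G49860). Neighbours of this kind can be alike in sequence, and whether a probe also bound the RNA of a relative was not tested.

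**Figure D1:**
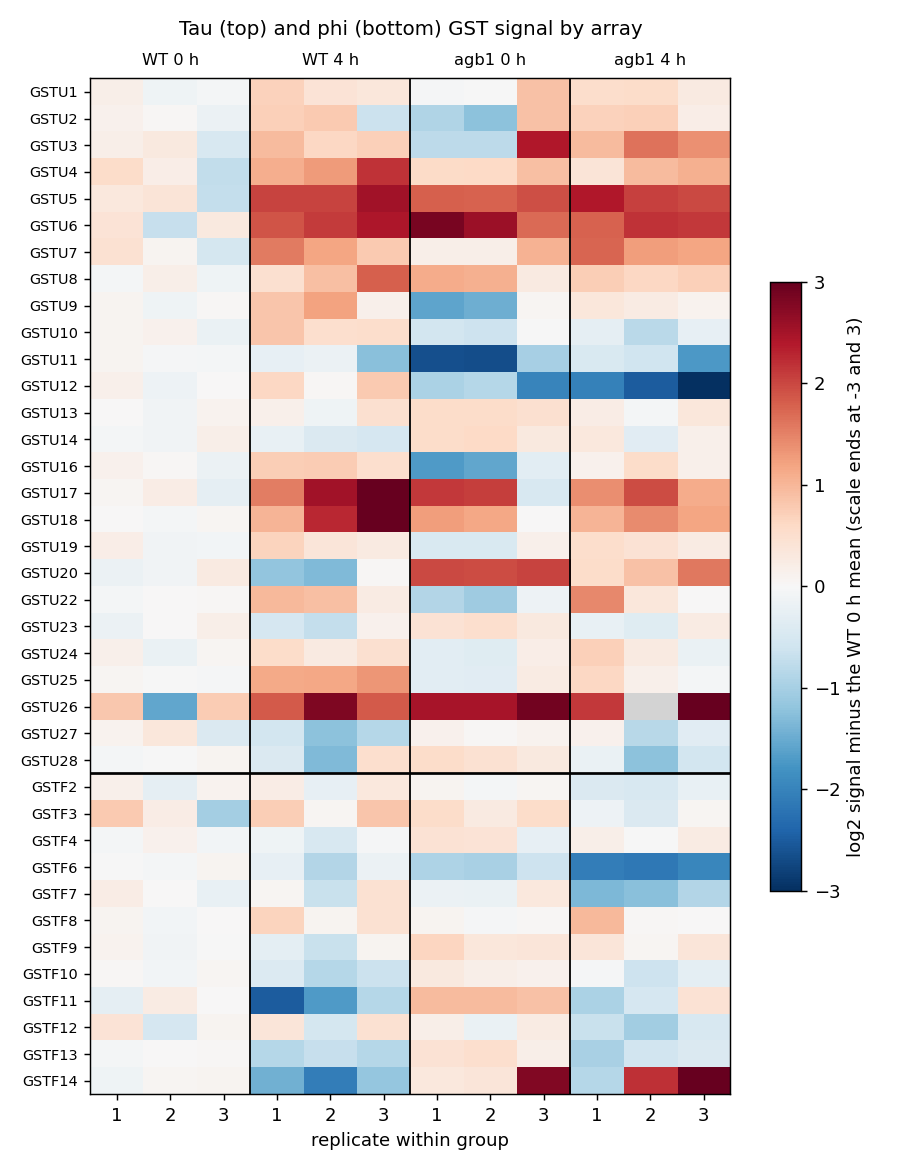
Log2 signal of the 38 tested members on each of the 12 arrays (columns, by group and replicate), minus the mean of the 3 WT 0 h arrays, with red above and blue below it and grey for the value left out. *GSTU5* and *GSTU6* are red in all groups but WT 0 h, *GSTF6* is bluest in *agb1* at 4 h, and replicate 3 of *agb1* at 0 h departs from replicates 1 and 2 in members such as *GSTU3*, *GSTU17* and *GSTF14*.

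Of the 2 classes, the tau class held the genes that rose in WT roots under salt. With calls set at a 2-fold change or more and an adjusted p under 0.05, 9 of the 26 tau members were higher after 4 h and 0 were lower, against 5.81% of all genes tested higher and 3.99% lower. Among the 12 phi members 0 were higher and 1, *GSTF11*, was lower. The median log2 change was 0.64 over the tau class, -0.26 over the phi class and -0.10 over all genes. A change above 0 was seen in 20 tau and 4 phi members, against 10403 of all 25206 genes. The tau median was 0.57 within slide 1 and 0.55 within slide 3, with 20 of 26 members above 0 on each, while the phi median was -0.20 and 0.05.

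The 4 neighbours *GSTU4*, *GSTU5*, *GSTU6* and *GSTU7* were all called, and the changes of the run of 7 ranged from 0.29 to 2.19. *GSTU5*, first described as an auxin-responsive transcript, had log2 signals of 2.01, 2.09 and 0.98 in WT at 0 h and of 3.72, 3.72 and 4.21 at 4 h. The groups did not overlap, and the rise was 4.58-fold (log2 change 2.19, SE 0.29, adjusted p = 0.00157). Being called favours such a gap, here and below, and the share of all genes with one was not counted. *GSTU6* went from 0.68, -0.42 and 0.57 to 2.17, 2.37 and 2.69, a 4.39-fold rise (log2 change 2.13, SE 0.34, adjusted p = 0.00375), again with every array at 4 h above every array at 0 h. For *GSTU4* the signals were 0.91, 0.57 and -0.37 at 0 h and 1.47, 1.64 and 2.55 at 4 h, or 2.85-fold (log2 change 1.51, SE 0.38, adjusted p = 0.0243). Its lowest array at 0 h and its highest at 4 h both carried replicate number 3, and both lay on the third slide. The change of *GSTU7* was 1.18 (SE 0.32, adjusted p = 0.0331). *GSTU1*, *GSTU2* and *GSTU3*, at the other end of the run, had changes of 0.48, 0.29 and 0.76 and did not pass. The groups of *GSTU1* and *GSTU3* did not overlap either.

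*GSTU17*, a gene named in dehydration and phytochrome A responses, showed the largest change of the 38 members in WT. Its signals were -0.77, -0.61 and -1.10 at 0 h and 0.72, 1.70 and 3.72 at 4 h, a 7.34-fold difference of means (log2 change 2.88, SE 0.79, adjusted p = 0.0333). The arrays at 4 h spread over 3.01 log2 units, against 0.49 at 0 h. *GSTU18* moved from -3.20, -3.29 and -3.17 to -2.21, -0.97 and -0.05, or 4.42-fold (log2 change 2.14, SE 0.48, adjusted p = 0.0161). Both genes were lowest on replicate 1 and highest on replicate 3 at 4 h, and the change of *GSTU17* was 1.49 within slide 1 and 4.83 within slide 3. The 2 gene models overlap in the RefSeq annotation. The 3 probes of *GSTU17* gave changes of 2.80 to 2.88, and the 2 of *GSTU18* gave 2.14 and 2.36.

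On another part of chromosome 1, *GSTU25*, whose enzyme can conjugate the explosive TNT, rose from 2.46, 2.40 and 2.36 to 3.55, 3.56 and 3.73. The change was smaller, 2.30-fold, but the arrays of a group spanned 0.09 at 0 h and 0.18 at 4 h (log2 change 1.204, SE 0.19, adjusted p = 0.00392). *GSTU26* read 2.39, 0.02 and 2.33 at 0 h and 3.42, 4.38 and 3.42 at 4 h, a 4.47-fold change (log2 2.16, SE 0.64, adjusted p = 0.0475). The array of 0.02 was WT 0 h replicate 2, alone on its slide, and the change was 1.03 and 1.09 within slides 1 and 3. *GSTU24*, the remaining member of that run, changed by 0.43 and did not pass. *GSTU8* was the last tau member called, at 1.06 (SE 0.32, adjusted p = 0.0458).

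Other tau genes changed less. *GSTU19*, an enzyme induced by herbicide safeners, read 6.05, 5.73 and 5.76 at 0 h and 6.52, 6.22 and 6.11 at 4 h (log2 change 0.43, SE 0.19, adjusted p = 0.133). *GSTU27* had the lowest change of the tau class, -0.88 (SE 0.28, adjusted p = 0.0571).

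*GSTF11*, which has been linked to glucosinolate synthesis, was the phi member that fell in WT. Its signals were -0.49, 0.03 and -0.22 at 0 h and -2.73, -1.94 and -1.09 at 4 h, a 3.23-fold fall (log2 change -1.69, SE 0.43, adjusted p = 0.0256) without overlap. *GSTF13* and *GSTF10* were below the adjusted p threshold at less than 2-fold, with changes of -0.80 (adjusted p = 0.00862) and -0.63 (adjusted p = 0.0304). *GSTF9* went from 6.63, 6.41 and 6.52 to 6.23, 5.85 and 6.59, and *GSTF12*, which carries flavonoids to the vacuole, from -1.20, -2.13 and -1.53 to -1.26, -2.15 and -1.18. Both pairs of groups overlapped.

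*GSTU5*, *GSTU6* and *GSTU25* were called whichever array was left out. The number of members called fell from 10 to 5 when replicate 1 of WT at 0 h was left out. It was 3 when replicate 2 or 3 of WT at 0 h, or replicate 2 of WT at 4 h, was left out. Calls over all genes fell from 1465 higher and 1006 lower to 1055 and 708 without WT 0 h replicate 1. Without WT 0 h replicates 2 and 3 they were 1025 and 711, and 905 and 619. Without WT 4 h replicate 2 they were 964 and 702.

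**Figure D2:**
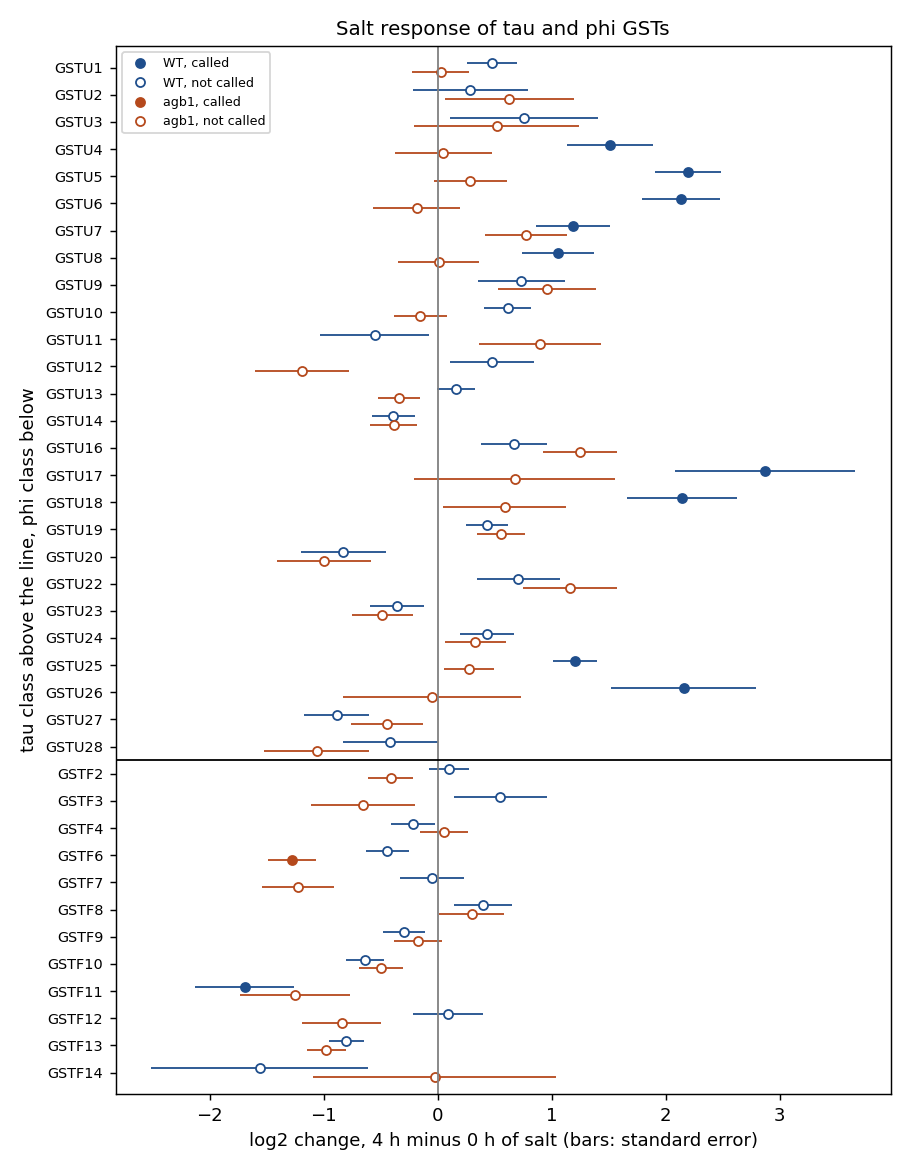
Fitted log2 change from 0 to 4 h of salt for each tested member in WT (blue) and *agb1* (orange), with the standard error as bars and filled points for members called. In WT, 9 tau members lie past 1 and are filled, and in *agb1* the single filled point is *GSTF6* at -1.28.

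In *agb1* roots 0 of the 26 tau members passed the same test in either direction, and 1 phi member, *GSTF6*, was lower. Over all genes 1.14% were called higher and 0.516% lower in *agb1*. The median log2 change was 0.16 in the tau class, -0.57 in the phi class and -0.04 over all genes. In the phi class 10 of 12 members had a change below 0, against 13631 of all 25206 genes. The salt responses of the 2 genotypes share no array, and 15 tau members had a change above 0 in both genotypes, 5 below 0 in both, 5 above 0 in WT alone and 1 above 0 in *agb1* alone. Within slides 1, 3 and 4 the phi median was -0.77, -0.44 and -0.74, and the tau median was 0.13, -0.09 and 0.29. The 6 shoot markers were all above 0 in this comparison, with a median of 0.96 and 0 called, and their part in these values was not tested.

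*GSTF6*, an enzyme of camalexin synthesis also known as an early dehydration gene, read 2.58, 2.53 and 2.89 in *agb1* at 0 h and 1.42, 1.36 and 1.55 at 4 h. The groups were well apart, a 2.43-fold fall (log2 change -1.28, SE 0.21, adjusted p = 0.0211). The call needed replicate 3 of *agb1* at 0 h and replicates 2 and 3 of *agb1* at 4 h, each of which ended it when left out, and over all arrays left out in turn the change stayed between -1.33 and -1.11. Its neighbour *GSTF7* read -0.29, -0.32 and 0.21 at 0 h and -1.45, -1.37 and -0.98 at 4 h, also without overlap, and missed the threshold (log2 change -1.22, SE 0.32, adjusted p = 0.0804). *GSTF13* had a change of -0.98 (adjusted p = 0.0284) and stayed just under 2-fold, and *GSTF11* one of -1.25 (adjusted p = 0.178).

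The tau members called in WT had smaller changes in *agb1*, from -0.18 for *GSTU6* to 0.78 for *GSTU7*. *GSTU5* was at 0.29, *GSTU17* at 0.68, *GSTU18* at 0.59 and *GSTU25* at 0.28. These members were picked by their change in WT, and such a choice alone favours smaller changes in another comparison. The largest tau change in *agb1* was that of *GSTU16*, which read -2.65, -2.51 and -1.28 at 0 h and -0.83, -0.41 and -0.80 at 4 h (log2 change 1.25, SE 0.32, adjusted p = 0.0791). When replicate 3 of *agb1* at 0 h was left out, 4 members were called, the tau members *GSTU3*, *GSTU9* and *GSTU16* higher and *GSTF13* lower. That fit leaves *agb1* at 0 h with 1 sample, assumed to vary like the other groups. Without that array 7 of the 38 changes in *agb1* turned sign, among them that of *GSTU17* (-0.61) and of *GSTU18* (-0.0036). The number called was 2 without replicate 3 of WT at 4 h and 0 without replicate 2 of *agb1* at 4 h. It was 6 with 12 arrays taken as 12 samples, *GSTU16* and *GSTU22* higher and *GSTU12*, *GSTF6*, *GSTF7* and *GSTF13* lower. It was also 6 when the replicate number was added to those 12 arrays as a block, with *GSTF11* lower in place of the rise of *GSTU22*.

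The interaction, in which the change in WT is subtracted from the change in *agb1*, was not called for any member at an adjusted p below 0.05, where 0.0912% of all genes were higher and 0.0873% lower. At an unadjusted p below 0.05, 0 members were higher and 8 were lower, 6 tau and 2 phi, against 7.18% of all genes higher and 5.21% lower. The median was -0.43 in the tau class, -0.14 in the phi class and 0.05 over all genes. Below 0 were 18 of the 26 tau members, against 11222 of all 25206 genes. Without replicate 3 of *agb1* at 0 h the tau and phi medians were -0.18 and -0.21, in the opposite order. The tau median was -0.25 within slide 1 and -0.90 within slide 3, and the phi median -0.37 and -0.28. The lowest p was that of *GSTU6*, with an interaction of -2.32 (SE 0.51, adjusted p = 0.134), followed by *GSTU5* at -1.91 (SE 0.43, adjusted p = 0.147). *GSTU25*, *GSTU12*, *GSTF6* and *GSTF7* had interactions of -0.93, -1.66, -0.84 and -1.17, with adjusted p of 0.265, 0.288, 0.296 and 0.319. The larger values of *GSTU17* (-2.20, SE 1.18) and *GSTU26* (-2.21, SE 1.01) came with errors more than 2 times those of *GSTU5*, and *agb1* 4 h replicate 2 is missing for *GSTU26*.

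Before salt, *GSTU5*, *GSTU6* and *GSTU20* were higher in *agb1* than in WT, so 3 of 26 tau members and 0 of 12 phi members were called higher and 0 were lower, against 0.591% of all genes higher and 1.29% lower. At the threshold the study used, an unadjusted p below 0.05 and at least 2-fold, 4 tau members were higher and 2 were lower, against 2.96% and 3.09% of all genes, and 0 phi members passed. The median log2 difference, *agb1* minus WT, was 0.41 over the tau class, 0.15 over the phi class and 0.0013 over all genes. Without replicate 3 of *agb1* at 0 h it was 0.13 for tau and 0.28 for phi, the opposite order. Within slide 1 it was -0.08 for tau and 0.13 for phi, and within slide 3 it was 0.26 and 0.13.

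*GSTU5* stood at 3.47, 3.46 and 3.63 in *agb1* at 0 h, against the 2.01, 2.09 and 0.98 of WT, and the difference was 3.62-fold (log2 1.86, SE 0.32, adjusted p = 0.0294). Its signals of 4.09, 3.75 and 3.68 in *agb1* at 4 h left WT at 0 h as the single low group. *GSTU6* had the same form, with 3.12, 2.85 and 1.97 in *agb1* at 0 h and 2.04, 2.45 and 2.39 at 4 h. Its difference at 0 h was 4.60-fold (log2 2.20, SE 0.38, adjusted p = 0.0294), and 2.44 and 1.40 within slides 1 and 3. At 4 h the genotypes differed by -0.05 for *GSTU5* and -0.11 for *GSTU6*, and their groups overlapped. The salt response in WT and the difference at 0 h rest on the same WT 0 h arrays. *GSTU20*, whose product binds the jasmonate-conjugating enzyme JAR1, read 1.43, 1.51 and 1.87 in WT and 3.59, 3.57 and 3.63 in *agb1* at 0 h, a 4.01-fold difference (log2 2.00, SE 0.41, adjusted p = 0.0476) of groups far apart.

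*GSTU26*, *GSTU12* and *GSTF6* reached an unadjusted p below 0.05 at 0 h but not the adjusted threshold. *GSTU26* read 4.06, 4.05 and 4.49 in *agb1*, above all WT 0 h arrays (log2 difference 2.69, SE 0.71, adjusted p = 0.103). *GSTU12* read -0.56, -0.87 and -0.69 in WT and -1.65, -1.55 and -2.68 in *agb1* (difference -1.43, SE 0.41, adjusted p = 0.114). *GSTF6* read 3.48, 3.43 and 3.59 in WT, above its 3 *agb1* arrays (difference -0.78, SE 0.21, adjusted p = 0.100). In none of the 3 did the genotypes overlap, but they were picked by a low p. The share of all genes without overlap was not counted.

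The calls at 0 h were open to single arrays. Without any 1 of the 3 WT 0 h arrays, 0 members were called, and without WT 4 h replicate 2 there was 1. The calls over all genes fell as well, from 149 higher and 325 lower with all arrays. Without WT 0 h replicates 1, 2 and 3 in turn they were 8 and 33, 15 and 49, and 11 and 28. Without WT 4 h replicate 2 they were 81 and 187. Without *agb1* 0 h replicate 3, *GSTU5* and *GSTU20* were no longer called, *GSTU6* was and *GSTU16* was called lower. The differences themselves stayed between 1.5 and 2.06 for *GSTU5*, 1.85 and 2.71 for *GSTU6* and 1.92 and 2.14 for *GSTU20* when arrays were left out. The 6 shoot markers were all below 0 in this comparison, with a median difference of -0.93 and 0 called, and the part of shoot RNA in the differences of the glutathione transferases was not tested.

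**Figure D3:**
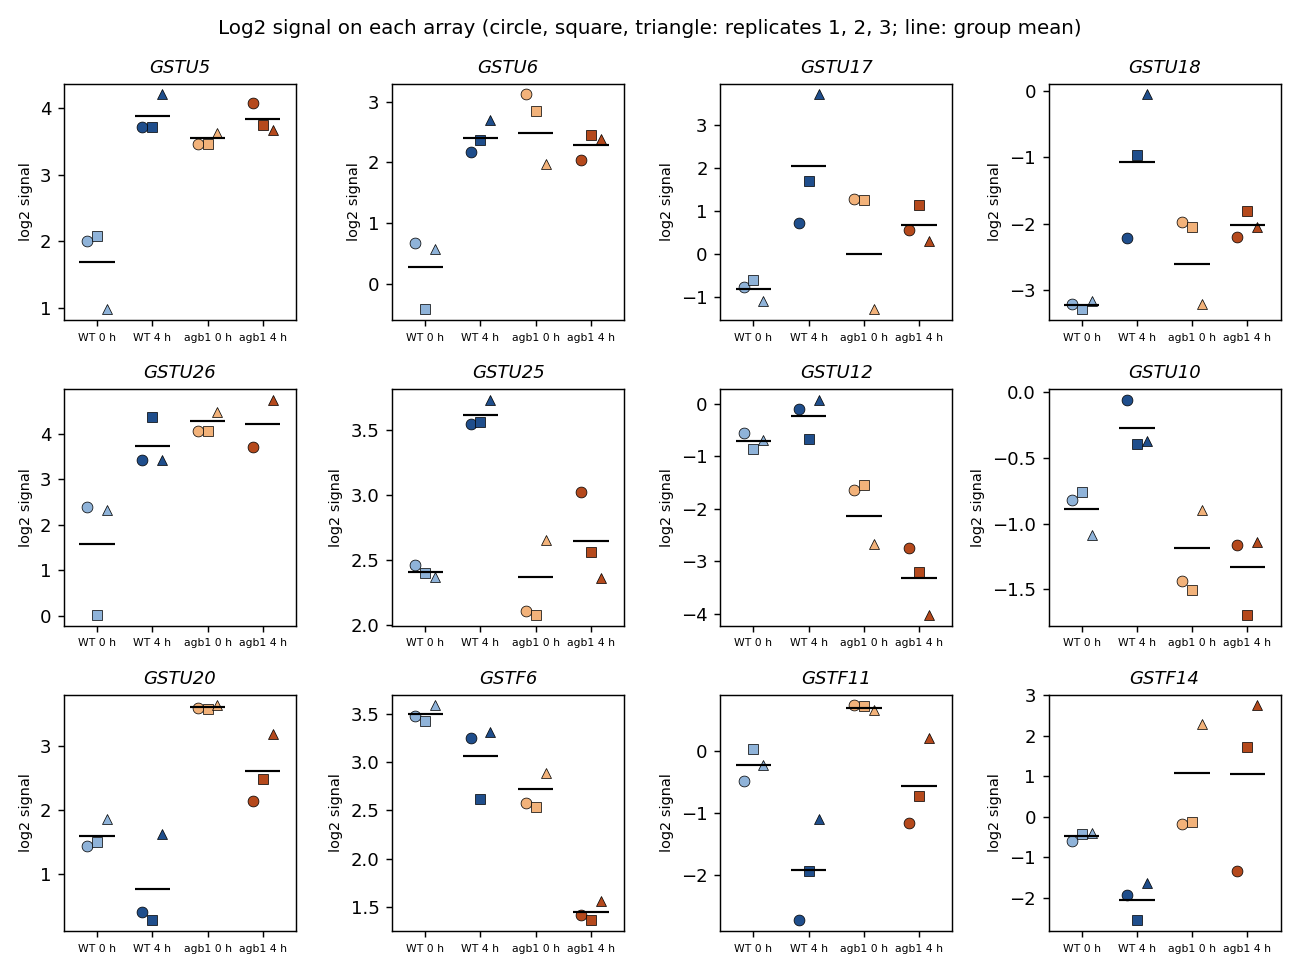
Log2 signal of 12 members on every array, with a symbol for each replicate and a line at the mean used in the fit, in which replicates 1 and 2 of *agb1* at 0 h count as 1 sample. *GSTU5* and *GSTU6* are low in WT at 0 h alone, *GSTU20* is high in *agb1* at both times, *GSTU12* and *GSTF6* are lowest in *agb1* at 4 h, and *GSTF14* differs between arrays of the same *agb1* group.

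At 4 h, 3 tau members (*GSTU12*, *GSTU10*, *GSTU25*) and 1 phi member (*GSTF6*) were lower in *agb1* than in WT, and 1 tau member (*GSTU20*) was higher, where 1.04% of all genes were lower and 0.615% higher. At the study's threshold with p unadjusted, 1 tau and 2 phi members were higher and 2 tau and 2 phi members lower. Over all genes 1.2% were higher and 2.5% lower. The medians were near 0, at -0.12 for the tau class, 0.04 for the phi class (-0.03 after quantile normalization) and 0.05 over all genes. Within slides 1, 3 and 4 the tau median was 0.0021, -0.28 and -0.0061 and the phi median 0.10, -0.08 and 0.02.

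*GSTU12* had the largest difference between the genotypes of all members at 4 h. It read -0.10, -0.67 and 0.08 in WT and -2.74, -3.21 and -4.02 in *agb1*, or 8.55-fold lower (log2 -3.10, SE 0.37, adjusted p = 0.00467). Every *agb1* array was at least 2-fold below every WT array, and the difference was -2.65, -4.10 and -2.54 within slides 1, 3 and 4. Its change from 0 to 4 h in WT was 0.48 (adjusted p = 0.385), whereas in *agb1* it was -1.19 (adjusted p = 0.148). Its neighbour *GSTU11* differed by -0.37 at 4 h. At 0 h *GSTU11* differed by -1.825 (SE 0.53, adjusted p = 0.118) and *GSTU12* by -1.43. The *agb1* arrays of *GSTU11* at 0 h spanned 1.66.

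*GSTF6* read 3.25, 2.62 and 3.32 in WT at 4 h, against 1.42, 1.36 and 1.55 in *agb1*, and was 3.07-fold lower (log2 -1.62, SE 0.19, adjusted p = 0.00453). The 3 arrays of *agb1* lay within 0.20 of each other and below all WT arrays, and the difference was -1.84, -1.76 and -1.26 within slides 1, 3 and 4. Its second probe gave -1.98. *GSTF7*, the neighbour, read -0.05, -0.78 and 0.34 in WT, above its *agb1* arrays, and did not pass (log2 -1.11, SE 0.28, adjusted p = 0.105).

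*GSTU10* read -0.06, -0.39 and -0.37 in WT and -1.16, -1.70 and -1.14 in *agb1* (log2 -1.06, SE 0.21, adjusted p = 0.0433). *GSTU25* read 3.02, 2.56 and 2.36 in *agb1*, below all WT arrays at 4 h (log2 -0.97, SE 0.19, adjusted p = 0.0455). *GSTU20* read 0.42, 0.28 and 1.63 in WT and 2.15, 2.49 and 3.19 in *agb1*, 3.56-fold higher (log2 1.83, SE 0.37, adjusted p = 0.0466). It was the one member called at both times. In each of the 3 the genotypes did not overlap, but being called favours this, and the share of all genes without overlap was not counted.

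The number called at 4 h was 2, *GSTU12* and *GSTF6*, without any 1 of the 3 WT 0 h arrays. It was also 2 when replicate 1 of WT at 4 h, or replicate 2 or 3 of *agb1* at 4 h, was dropped, and 3 when replicate 2 or 3 of WT at 4 h was dropped. *GSTU12* and *GSTF6* were called whichever array was left out. Over all genes 155 were higher and 261 lower with all arrays. Without WT 0 h replicates 1, 2 and 3 in turn these counts were 62 and 155, 77 and 171, and 73 and 163. Samples of the same number deviated together between WT and *agb1* at 4 h, and with the replicate number as a block in a fit of the 4 h arrays alone, a setting chosen after seeing the data, 0 members were called. *GSTU12* then had an adjusted p of 0.0986 and *GSTF6* one of 0.0794, with 33 genes lower and 5 higher among all tested.

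**Figure D4:**
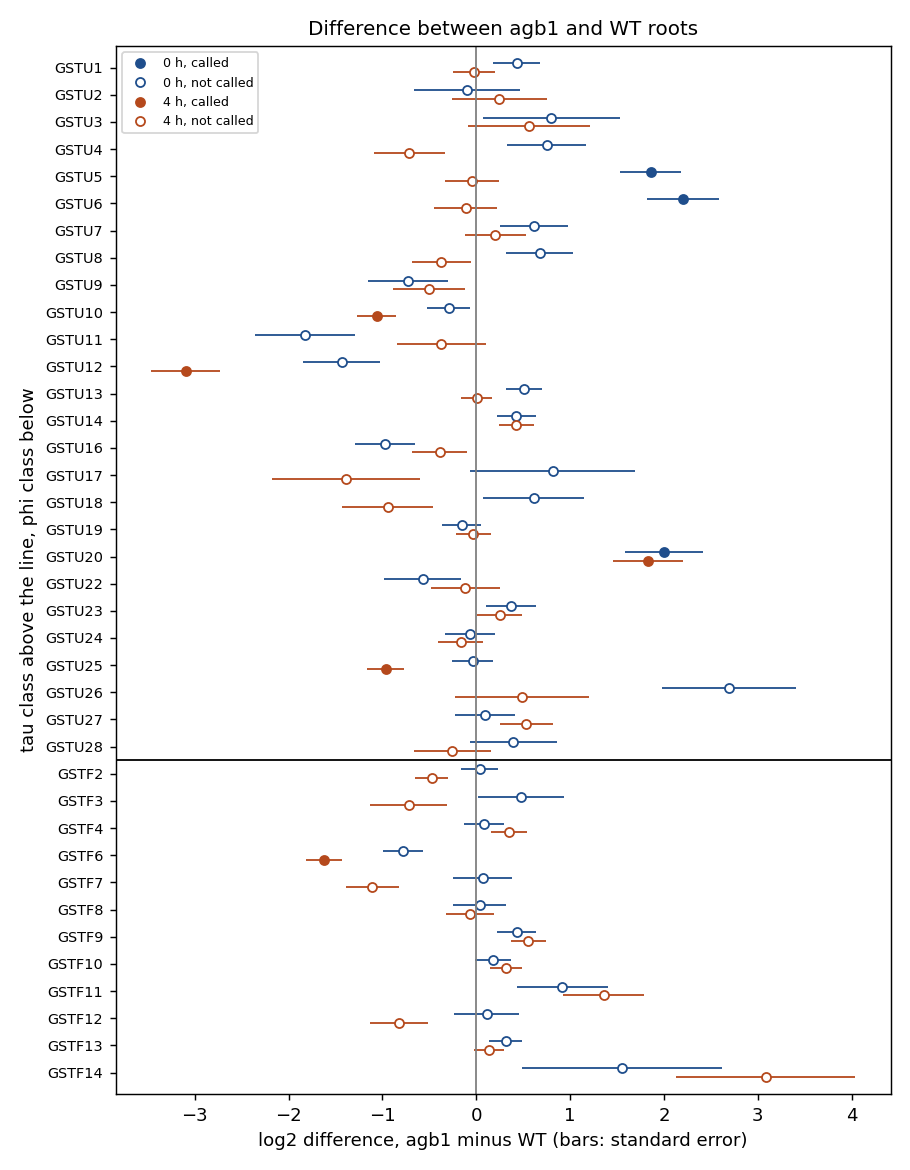
Fitted log2 difference, *agb1* minus WT, for each tested member at 0 h (blue) and 4 h (orange), with the standard error as bars and filled points for members called. *GSTU20* is filled at both times, *GSTU5* and *GSTU6* at 0 h, and *GSTU12*, *GSTF6*, *GSTU10* and *GSTU25* at 4 h below 0.

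Several members differed as much within a group as between groups. In *agb1* at 0 h, 10 of the 38 members spanned over 1 log2 unit between arrays, against 14.9% of all genes, and replicate 3 was the array apart, above the mean of replicates 1 and 2 by over 1 in 6 members and below in 4. *GSTU3*, singled out after its values were seen, read -2.40, -2.38 and 0.79 there, while its 3 WT 0 h arrays lay between -2.07 and -1.31. *GSTU17* went the other way, with 1.28, 1.26 and -1.30, and *GSTU18* with -1.98, -2.05 and -3.20. *GSTF14*, also chosen on its values, read -0.17, -0.13 and 2.29 in *agb1* at 0 h and -1.33, 1.72 and 2.74 at 4 h, where the WT arrays lay between -2.56 and -1.64. Its difference at 4 h was 3.09 (SE 0.95, adjusted p = 0.173), and its largest range within a group was 4.08. The spread in WT at 0 h was smaller, with a median range of 0.31 over the members, against 0.73 in WT at 4 h, 0.55 in *agb1* at 0 h and 0.56 in *agb1* at 4 h. Over all genes these medians were 0.25, 0.48, 0.40 and 0.40.

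Other glutathione genes were examined beside the members, on lists chosen by function. Of the zeta, theta, lambda, DHAR and TCHQD transferases, 11 of 12 were tested and 0 were called in any of the 5 comparisons by limma. For salt in WT, 5.81% of all genes were called higher and 3.99% lower. The lowest p in this list was that of *GSTL3*, a lambda transferase, with a difference of 0.81 at 0 h (SE 0.20, adjusted p = 0.0843), and its salt response in WT was 0.49 (adjusted p = 0.0865). Of 15 genes of glutathione synthesis, reduction, turnover and conjugate transport, all tested, 2 rose in WT, against 5.81% of all genes. Both were ABCC transporters, the family that holds the vacuolar conjugate pumps. *ABCC3* (AT3G13080) changed by 1.83 in WT (SE 0.21, adjusted p = 0.000823) and by 1.32 in *agb1* (SE 0.23, adjusted p = 0.0282), and *ABCC4* (AT2G47800) by 1.80 in WT (SE 0.44, adjusted p = 0.0211). *GGT2*, a gamma-glutamyl transferase, fell by 1.204 in *agb1* (SE 0.21, adjusted p = 0.0269). So 1 of the 15 was called higher and 1 lower in *agb1*, against 1.14% and 0.516% of all genes. None of the 15 was called between the genotypes. Over all genes 0.591% were higher and 1.29% lower at 0 h, and 0.615% and 1.04% at 4 h. Their median change was 0.29 in WT and 0.03 in *agb1*.

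Of 11 detoxification genes known to be induced together with glutathione transferases by reactive chemicals, 2 rose in WT, against 5.81% of all genes. The 2 were *AER* (AT5G16970), an alkenal reductase, at 2.32 (SE 0.45, adjusted p = 0.00873), and *DTX3* (AT2G04050), a MATE efflux carrier, at 2.24 (SE 0.65, adjusted p = 0.0408). In *agb1*, 0 of the 11 were called, against 1.14% of all genes higher and 0.516% lower. The change of *DTX3* there was 2.90 (SE 0.73, adjusted p = 0.0755). The list's median change was 0.46 in WT and 0.89 in *agb1*, where all 11 were above 0, and its median difference between genotypes at 0 h was -0.74, with 0 called.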

How the data were processed

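Total RNA of roots was labelled with Cy3 and hybridised to 12 one-colour Agilent arrays (43803 spots, 43603 probes). The authors deposited scanner files, whose processed signal is a linear intensity after Feature Extraction's own background subtraction. The labels name Feature Extraction 9.1 and the file headers 10.7.1.1, and the arrays were not scaled to each other. Here the log2 intensity minus the array's 75th percentile was used, control spots and outlier spots were left out, and the brightest probe stood for a locus. Probes matched a locus through the AGI number or RefSeq transcript in the deposited annotation (34358 probes, 25433 loci), with names and gene order from RefSeq's TAIR10.1 table. A gene was tested where all arrays of 1 group or more showed its probe well above background.

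Groups came from the labels. A model of 4 group means was fitted with limma 3.58.1 in R 4.3.3 (lmFit, eBayes) over 25206 genes in 11 samples, with Benjamini-Hochberg adjustment over all of them. Salt responses were called at 2-fold or more with an adjusted p under 0.05, and the genotype differences and the interaction at an adjusted p below 0.05. The study's methods name no model, and its threshold, read as an unadjusted p, is given beside. By the same comparison with repeated spots (14 probes), WT 0 h replicate 3 was also within the spot spread of replicates 1 and 2, but 496 and 779 probes differed over 1.5-fold there, and these arrays were kept apart.

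The number of a replicate was checked for pairing by correlating same-numbered deviations from the group means over all genes. The 3 correlations were 0.351 to 0.582 between WT and *agb1* at 4 h and -0.197 to -0.00333 between genotypes at 0 h. Between 0 and 4 h they were 0.0898 to 0.212 in WT and -0.104 to 0.109 in *agb1*. They were -0.581 to -0.259 between WT at 4 h and *agb1* at 0 h, and 0.0642 to 0.145 between WT at 0 h and *agb1* at 4 h. The numbers were taken to pair the samples at 4 h alone, and the main fit did not use this pairing. At 4 h, arrays of the same number also shared a slide, so number and slide cannot be told apart. The number of arrays limits the precision.

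The members and lists were chosen with earlier results of these data known. Per-array values were given for the members called in a comparison (the 8 largest changes), for up to 6 members of lowest p among those at an unadjusted p below 0.05 between genotypes, for the members whose probes had the highest and lowest mean signal in each class (an order of probes, not of transcripts) and, in the other lists, for the 2 genes of lowest p as fitted changes. Further members named to complete a run or a spread were chosen after their values were seen. Alternatives were normexp background correction (offset 50) on the median signals, quantile and median scaling, another percentile, other filters, the mean of a gene's probes, only the 2 groups compared, the replicate or slide as a block in a fit of 12 arrays, array weights, 12 separate arrays, a variance trend and each array left out. The script was tested on simulated data first. Sequences were not used here.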

Additional observations from a re-analysis of the deposited data

How the results depend on the processing

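The number of members called was 10 (salt in WT), 1 (salt in *agb1*), 3 (genotypes at 0 h), 5 (genotypes at 4 h) and 0 (interaction). Normexp correction moved the median change of all genes to -0.31, 0.15, -0.25, 0.18 and 0.35 in the same order. The first 4 counts were then 4, 0, 0 and 2. Over all genes the calls fell too, to 411 higher and 483 lower for salt in WT (1465 and 1006 in the main fit). They were 12 and 6 for salt in *agb1*, 2 and 5 at 0 h and 7 and 13 at 4 h. Without a filter the count at 4 h was 2, with 101 genes higher and 204 lower over all tested. With only the 2 groups compared, the counts for salt in *agb1*, 0 h and 4 h were 0, 1 and 1. Over all genes they were 45 higher and 9 lower, 541 and 633, and 16 and 78. Counting 12 arrays as 12 samples gave 6 for salt in *agb1*, 7 at 0 h and 1 (*GSTU6*) for the interaction. Over all genes 888 were then higher and 511 lower, 959 and 1287, and 95 and 168. The main fit called 288 and 130, 149 and 325, and 23 and 22. Adding the replicate block to those 12 arrays left salt in *agb1* at 6 and gave 4 at 0 h and 0 for the interaction. Its calls over all genes were 731 higher and 406 lower, 789 and 1022, and 55 and 103. At 4 h its calls were *GSTF6*, *GSTU12*, *GSTU10*, *GSTU20* and *GSTF12*, with *GSTU25* lost, and a replicate block in the 4 h arrays alone, added after seeing the data, gave 0. With the slide as a block, salt in WT gave 3, salt in *agb1* gave 2 and 4 h gave 3. Over all genes these were 922 higher and 658 lower, 429 and 217, and 112 and 184. Array weights gave 0 for salt in *agb1*, 0 at 0 h and 16 at 4 h. Over all genes they called 113 higher and 52 lower, 44 and 123, and 3114 and 2111. The main fit called 155 and 261 at 4 h. Leaving out 1 array at a time gave 3 to 10, 0 to 4, 0 to 3, 2 to 5 and 0 for the 5 comparisons. The cause of these shifts was not tested. The 27 single-member results that were rerun kept their sign, and of their values 549 kept their side of the threshold, 119 lost the call and 5 gained it. *GSTU5*, *GSTU6* and *GSTU25* kept the salt call in WT under all these settings. At 4 h *GSTU12* kept the call in all but the 4 h arrays alone with the block, and *GSTF6* in all but that one and the 2 groups alone. *GSTU26* lost the salt call in WT in 10 of the 12 fits without an array, and the smallest change there was 1.38.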
